A study of Caenorhabditis elegans with 2 samples.

Results

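The lin genes of Caenorhabditis elegans were named for mutants whose cell lineages are abnormal, many of them in the vulva. Protein-coding genes were selected by their symbol, "lin-" followed by a number and nothing more, which does not take in lin-15A and lin-15B. Of 45 such genes, 10 were left out by name (lin-39, the Wnt pathway genes lin-17, lin-18 and lin-44, and the heterochronic genes lin-14, lin-28, lin-29, lin-41, lin-42 and lin-46), which left 35 of the 19973 protein-coding genes of the nuclear chromosomes. Bound genes were those with a summit of the conservative peak list in a window that ran between 2000 bp upstream and 500 bp downstream around any transcript start. The genes to set it against were those with a summit of the larger ranked peak list in the same window, which were 30 of the 35 lin genes and 13157 genes in all. The grouping was chosen with these peak lists in view, so all counts and shares of bound genes describe these lists and are given without a test.

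The data are 2 chromatin immunoprecipitation samples followed by sequencing (ChIP-seq), labelled biological replicates 1 and 2 of 1 group. Both came from strain RW12211, in which the ceh-20 gene carries a CRISPR insertion of TY1, EGFP and 3xFLAG, and the anti-GFP immunoprecipitation targeted the tagged protein. Whole L4 larvae were used at 49 hours, synchronised as starved L1 larvae after bleaching, so a peak gives no cell type and binding in a few cells cannot be told apart from weak binding in many. The design holds no mutant or untagged group, and control libraries were not analysed here.

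CEH-20 is a homeodomain protein of the Pbx family, a DNA-binding cofactor of Hox proteins such as LIN-39, and works with the Meis-type protein UNC-62. During vulval development an epidermal growth factor signal from the gonad acts through a receptor, Ras and a kinase cascade on the vulval precursor cells, and Notch signalling patterns their neighbours. The synthetic multivulva (synMuv) genes keep these cells from adopting vulval fates: loss of a class A gene together with a class B gene gives extra vulvae. Many class B genes encode the retinoblastoma-like protein, the DREAM complex that works with it, or other chromatin proteins.

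The sequences under 6 of the summits are printed. Among them are the strongest peak (lin-54), the strongest peak nearest to a lin gene's own start (lin-9) and the only one with a Hox-Pbx motif (lin-52). The other 3 are lin-66 and lin-24, which matched only the motif GAGAGA, and lin-13, which like lin-9 matched none of those searched. All sequences run 5′ to 3′ on the plus strand of ce11, from the RefSeq sequence of that assembly. They cover up to 50 bp on each side of the summit, with bases of a neighbouring exon left out. Capitals mark every match, on either strand, to the motifs searched.

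lin-54, chrIV:13240652-13240731: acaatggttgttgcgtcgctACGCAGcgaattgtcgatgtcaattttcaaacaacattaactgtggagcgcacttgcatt
lin-9, chrIII:8904200-8904300: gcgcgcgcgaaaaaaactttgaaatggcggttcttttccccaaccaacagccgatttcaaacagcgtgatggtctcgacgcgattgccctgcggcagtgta
lin-52, chrIII:9826189-9826289: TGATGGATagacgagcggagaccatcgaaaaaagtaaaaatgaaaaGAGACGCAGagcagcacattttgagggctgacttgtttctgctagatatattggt
lin-66, chrIV:13887662-13887762: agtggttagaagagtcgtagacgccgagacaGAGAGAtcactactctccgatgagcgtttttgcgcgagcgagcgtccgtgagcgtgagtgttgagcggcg
lin-24, chrIV:12131754-12131854: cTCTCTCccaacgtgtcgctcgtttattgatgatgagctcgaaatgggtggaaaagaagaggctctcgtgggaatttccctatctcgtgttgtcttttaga
lin-13, chrIII:7710279-7710379: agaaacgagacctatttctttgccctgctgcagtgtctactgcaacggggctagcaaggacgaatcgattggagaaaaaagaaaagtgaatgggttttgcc

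The motifs were TGATNNAT (the Hox-Pbx site), TGATTGAC (a Pbx site), TGACAG (the Meis site), CACGTG (the E-box), GAGAGA and CGTCTC, searched on both strands in the 101 bp centred on the summit, to which ACGCAG and AGACGCAG were added after the data had been seen. AGACGCAG contains ACGCAG, and its overlap with the reverse complement of CGTCTC joins the matches at lin-52 into 1 run of capitals. A match describes the letters only. TGATNNAT was found at lin-52 alone among the 11 strongest summits of bound lin genes, against 10.2% of all 2522 conservative summits. TGATTGAC, TGACAG and CACGTG were found at none of the 11, against 0.753%, 4.88% and 5.43% of all summits. GAGAGA stood at 3 of them, lin-24, lin-59 and lin-66, against 22.3% of all summits, and CGTCTC at lin-52, against 15.4%. ACGCAG stood at lin-52 and lin-54, against 12.7% of all summits. At least 1 of the first 6 motifs was present at 4 of the 11, against 45.4% of all summits.

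CEH-20 was called bound at 11 lin genes: lin-7, lin-9, lin-13, lin-23, lin-24, lin-35, lin-52, lin-53, lin-54, lin-59 and lin-66. That is 36.7% of the 30 with a ranked summit, against 14.5% of all 13157 genes with one. Taken over genes with or without a ranked summit, it is 31.4% of the 35 lin genes, against 9.57% of all protein-coding genes. Of the 11, 6 belong to the class B synMuv and chromatin group, which is also the role group with the most genes with a ranked summit, 10 of the 30. The signal quoted for each peak is the authors' value of its strength, whose scale the sources do not state, and is comparable only within 1 list. Values given for replicate 1 and replicate 2 come from the ranked list of each, and each stands on its own list's scale. In the larger ranked list the strongest summit per lin gene ran between 21.6 and 376 with a median of 53.3, against a median of 31.99 over all genes with a ranked summit. At the 11 bound lin genes the median conservative signal was 88.5, against 90.1 at all bound genes.

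**Figure D1:**
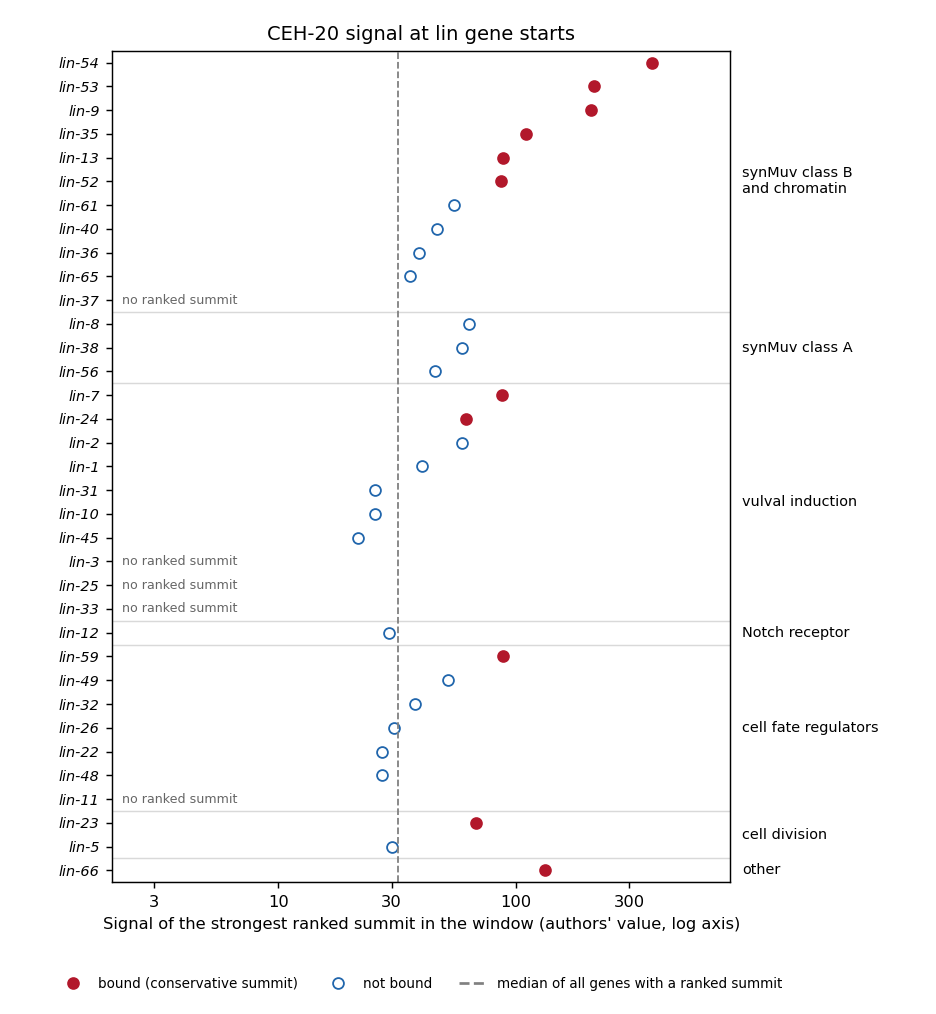
Each row is 1 lin gene, grouped by role, and the x axis (log scale) gives the authors' signal of the strongest summit of the larger ranked list in its window. Filled points are bound genes, open points are not, the dashed line is the median of all genes with a ranked summit (31.99), and the 5 genes without a ranked summit carry no point.

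The 3 strongest peaks at bound lin genes were at the class B genes lin-54, lin-53 and lin-9. Of 11 class B synMuv and chromatin genes, 10 had a ranked summit. Of those 10, 6 were bound (60%, against 14.5% of all genes with a ranked summit). At lin-54, whose product is a sequence-specific DNA-binding subunit of DREAM, the peak spanned chrIV:13240590-13240791 with a signal of 376, at rank 27 of 2522. Its signal was 189 in replicate 1 and 183 in replicate 2. The summit lay 363 bp upstream of a lin-54 start but only 30 bp upstream of the start of rpl-12, a ribosomal protein gene on the other strand.

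At lin-9, another DREAM subunit, the peak chrIII:8904092-8904407 had a signal of 208 (rank 144), with 112 in replicate 1 and 94.9 in replicate 2. Its summit was 119 bp upstream of the lin-9 start, the shortest distance among the 11. A second conservative summit at lin-9, with a signal of 81.5, lay 1279 bp upstream and only 205 bp from the start of unc-32, which encodes a subunit of the vacuolar proton pump. That second peak was in the thresholded list of neither replicate. At lin-52, a small DREAM subunit, the signal was 86.9 (rank 1146; chrIII:9826081-9826396), with 50.9 in replicate 1 and 32.99 in replicate 2. Its summit was the farthest from its own gene, 1489 bp upstream, and lay nearer, at 807 bp, to the start of ZK632.9.

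The retinoblastoma-like gene lin-35 had a peak of signal 111 (rank 652; chromosome I, 5807375 to 5807690), with 47.5 in replicate 1 and 57.7 in replicate 2. The summit sat 176 bp upstream of lin-35 and 242 bp upstream of vps-51, which runs the other way. At lin-53, which encodes a histone-binding WD-repeat protein of the RbAp48 family, the signal was 213 (rank 133; chromosome I, 9619975 to 9620078), with 95.3 in replicate 1 and 119 in replicate 2. Its summit was 245 bp upstream of lin-53 and 222 bp upstream of nra-2 on the other strand. The lin-13 peak, at a gene for a zinc finger protein, had a signal of 88.1 (rank 1116; chrIII:7710171-7710486), with 38.9 in replicate 1 and 47.4 in replicate 2, and lay 838 bp upstream.

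The other class B and chromatin genes were not bound. The MBT-repeat gene lin-61 had a strongest ranked signal of 54.8, and lin-36, lin-40 and lin-65 lay between 35.8 and 46.6. The DREAM subunit gene lin-37 had no summit of the larger ranked list in its window. In the ranked list of replicate 2 lin-37 had a summit with a signal of 23.6, and in that of replicate 1 it had none. Of the lin genes for the MuvB core of DREAM, lin-9, lin-52, lin-53 and lin-54 were therefore bound and lin-37 was not. Of all genes with a ranked summit, 14.5% were bound. At lin-52, lin-53 and lin-54 another gene's start was nearer to the summit. Where a summit counted only for its nearest start, lin-9 alone of these genes was bound.

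None of the 3 class A synMuv lin genes was bound, against 14.5% of all genes with a ranked summit. With only 3 genes this absence says nothing. All of them had ranked summits above the median of all genes. The strongest ranked summit of lin-8 had a signal of 63.9, that of lin-38 59.4 and that of lin-56 45.6. The lin-8 value exceeds that of the bound gene lin-24 (61.5), and signal alone does not decide which peaks are in the conservative list. Its peaks were thresholded on the IDR (irreproducible discovery rate, low where a peak holds its rank from input to input). The IDR of the ranked list does not decide it alone either, since some ranked peaks outside the conservative list also reach the maximum −log10 IDR of 5. At lin-8 the strongest ranked summit had a signal of 18.6 in replicate 1, at percentile 61.9 of that list, and of 45.1 in replicate 2, at percentile 97.0, and its −log10 IDR was 0.54. The 2 replicates thus ranked the lin-8 window differently. At lin-38 the strongest ranked summit had a signal of 36.5 in replicate 1 and 21.2 in replicate 2, and its −log10 IDR was 1.54, against 2.00 or more for every conservative peak.

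Among the 10 lin genes grouped under vulval induction, 7 had a ranked summit. Of these 7, 2 were bound (28.6%, against 14.5% of all genes with a ranked summit). The grouping is loose, since it includes lin-24, whose mutations are described below as killing vulval precursor cells. The lin-7 gene encodes a PDZ protein that, with LIN-2 and LIN-10, holds the growth factor receptor at the basolateral membrane. Its peak (chrII:14349566-14349881) had a signal of 87.4 (rank 1134), with 50.8 in replicate 1 and 38.3 in replicate 2. The summit was 318 bp upstream of lin-7 but 14 bp upstream of elof-1, a transcription elongation factor gene on the other strand, and Y54G11A.17 has a start at the same distance as lin-7. At lin-24, a gene in which certain mutations kill vulval precursor cells, the peak chrIV:12131646-12131961 had the lowest signal of the 11, 61.5 (rank 2129), with 35.8 in replicate 1 and 29.0 in replicate 2. It was intronic, 1083 bp upstream of 1 of the 3 lin-24 starts, and within 200 bp of the noncoding RNA gene B0001.12.

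The other lin genes grouped under vulval induction were not bound. The growth factor gene lin-3, the regulator lin-25 and lin-33 had no ranked summit in their windows. The annotation gives 7 transcript starts for lin-3 and 2 for lin-33, and the windows of all of them were searched. Inside the lin-3 gene, beyond the windows, there was 1 ranked summit, with a signal of 49.1, and none of the conservative list. The ETS gene lin-1, the winged-helix gene lin-31, the Raf gene lin-45 and the PDZ partner gene lin-10 had strongest ranked signals between 21.6 and 40.3. The Notch receptor gene lin-12 was also unbound, with a strongest ranked signal of 29.2 at 1581 bp upstream. The strongest ranked lin-12 summit of replicate 1 was near it, with a signal of 26.1 at 1586 bp, and that of replicate 2 was a different summit, with 13.0 at 340 bp.

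For 3 lin genes a conservative summit was nearest to their start yet outside the window. The lin-2 peak (chrX:12404844-12405159), at a gene for the second PDZ partner, was intronic, 859 bp past the nearer start. Its signal was 143 (rank 363), with 71.9 in replicate 1 and 63.5 in replicate 2. This signal was above that of 8 of the 11 bound lin genes, and the strongest ranked summit inside the lin-2 window was 59.5. At lin-32, a proneural bHLH gene, a peak of signal 131 (chrX:2227081-2227396) lay 2883 bp downstream, within 200 bp of a tRNA gene. At lin-45 a peak of signal 89.6 (chrIV:6751227-6751542) lay 2813 bp upstream. Over whole gene bodies, 2 of the 35 lin genes held a conservative summit, lin-2 and lin-24, against 3.54% of all protein-coding genes.

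Of the 7 lin genes for cell fate regulators, 6 had a ranked summit and 1 was bound. That is 16.7% of the 6, close to the 14.5% of all genes with a ranked summit. This was lin-59, which encodes a SET-domain protein like the trithorax-group protein Ash1 of Drosophila. Its signal was 88.5 (rank 1100; chromosome I, 3721534 to 3721849), with 57.8 in replicate 1 and 30.1 in replicate 2, and the summit was 535 bp upstream. The bromodomain gene lin-49, which acts with lin-59, was not bound and had a strongest ranked signal of 51.8, with 32.8 in replicate 1, 22.3 in replicate 2 and a −log10 IDR of 1.62. The transcription factor genes lin-22, lin-26, lin-32 and lin-48 lay between 27.2 and 37.5. The LIM homeodomain gene lin-11 had no summit of the larger ranked list in its window. The ranked list of replicate 1 had 1 there, at a signal of 9.73, and that of replicate 2 had none. Inside the lin-11 gene, beyond the window, the larger ranked list had 1 summit, with a signal of 49.6, and the conservative list none.

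Of the cell division genes, lin-23 was bound and lin-5 was not. The lin-23 gene encodes an F-box protein needed for cells to leave the cell cycle, and its peak chrII:6370144-6370459 had a signal of 67.9 (rank 1887), with 43.4 in replicate 1 and 31.5 in replicate 2. The summit lay 1001 bp upstream, and a second, overlapping conservative peak had a signal of 4.63, with a −log10 q-value of 0.0135. The spindle gene lin-5 had a strongest ranked signal of 30.1. The last bound gene, lin-66, acts in developmental timing. Its peak (chrIV:13887554-13887869) had a signal of 133 (rank 432), with 65.4 in replicate 1 and 63.0 in replicate 2, and lay 367 bp upstream with no other gene's window around it.

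The thresholded lists of the single replicates held the bound lin genes with the strongest peaks. The conservative list and the larger thresholded list of 2632 peaks gave the same 11 lin genes, against 14.9% of all genes with a ranked summit called in the larger list. The list of replicate 1 held a summit at 8 of the 30 lin genes, against 7.89% of all genes with a ranked summit, and that of replicate 2 at 7, against 9.53%. Both replicate lists had a summit at 6 of the 11 bound lin genes, lin-9, lin-35, lin-53, lin-54, lin-59 and lin-66, against 41.1% of all 1912 bound genes. These 6 are the ones with the highest conservative signals, 88.5 or more. Only the list of replicate 1 had lin-7 and lin-52, only that of replicate 2 had lin-13, and neither had lin-23 or lin-24. No lin gene was called in a replicate list alone. The replicate lists come from the same reads as the series lists and are no independent check of them.

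**Figure D2:**
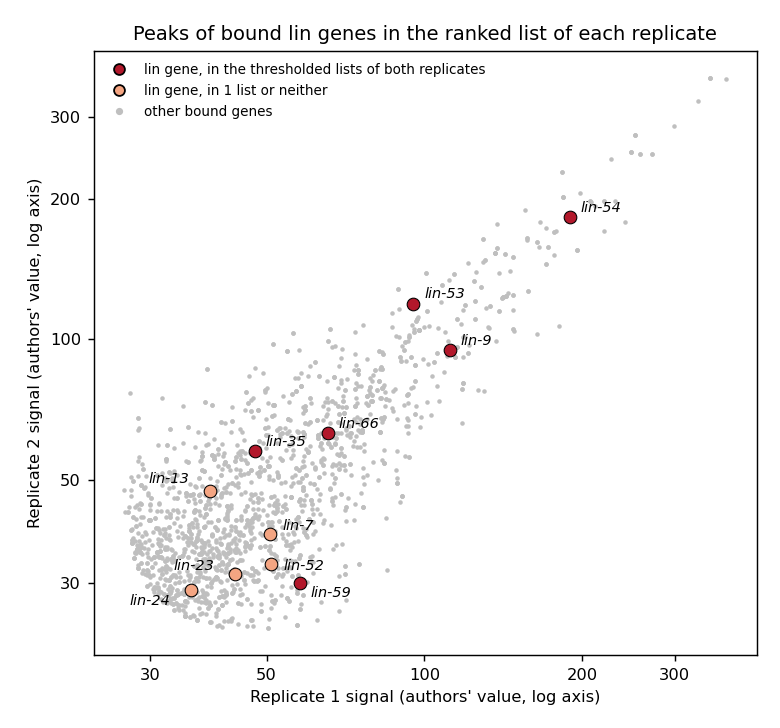
Each point is a bound gene, placed by the authors' signal of the peak overlapping its strongest conservative summit in the ranked list of replicate 1 (x axis) and of replicate 2 (y axis), both on log scales. The lin genes run between lin-24 (35.8 and 29.0) and lin-54 (189 and 183), and dark points are the 6 in the thresholded lists of both replicates.

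At all 19 lin genes with a ranked summit that were not bound, the strongest ranked summit stayed under the IDR limit of the conservative list. The IDR of weaker summits in the same windows was not read. Among these 19 summits the highest −log10 IDR was 1.62. Their signals lay between 21.6 and 63.9 with a median of 37.5, against a median of 29.3 over all 11245 unbound genes with a ranked summit. Just inside the limit the weakest bound lin genes were lin-24 at a −log10 IDR of 2.29 and lin-23 at 2.67. Just outside it were lin-49 at 1.62, lin-40 at 1.57 and lin-38 at 1.54.

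The position of the summits was not used by the rule beyond the limits of the window. Operons, in which several genes are transcribed from the start of the first, were not annotated in the reference used, so a distance to a lin gene's own start may not be the distance to its promoter. At lin-52, for example, ZK632.9 on the same strand starts nearer to the summit. All 11 strongest summits lay upstream of the lin gene's start, against 91.6% of the strongest summits of all bound genes. The median distance was 367 bp, against 456 bp for all bound genes, and 6 of the 11 were within 500 bp (54.5%), against 52.9%. The lin gene's own start was the nearest for 7 of the 11 (63.6%), against 68.6% of all bound genes, and at lin-7, lin-52, lin-53 and lin-54 another gene's start was nearer. Summits between the starts of genes running apart made up 7 of the 11 (63.6%), against 41.7% of all bound genes. Such a summit lay upstream of the gene and of a gene on the other strand whose window also held it. The distances were close at lin-35 (176 bp, and 242 bp to vps-51) and unlike at lin-9 (119 bp, and 1365 bp to unc-32). Position alone does not assign such a peak to 1 of these genes. No bound lin gene had a tRNA gene within 200 bp of its strongest summit, against 6.28% of all bound genes. The guanine and cytosine content of the 101 bp around the summit had a median of 46.5% (41.6 to 57.4%), against 48.5% for all bound genes.

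**Figure D3:**
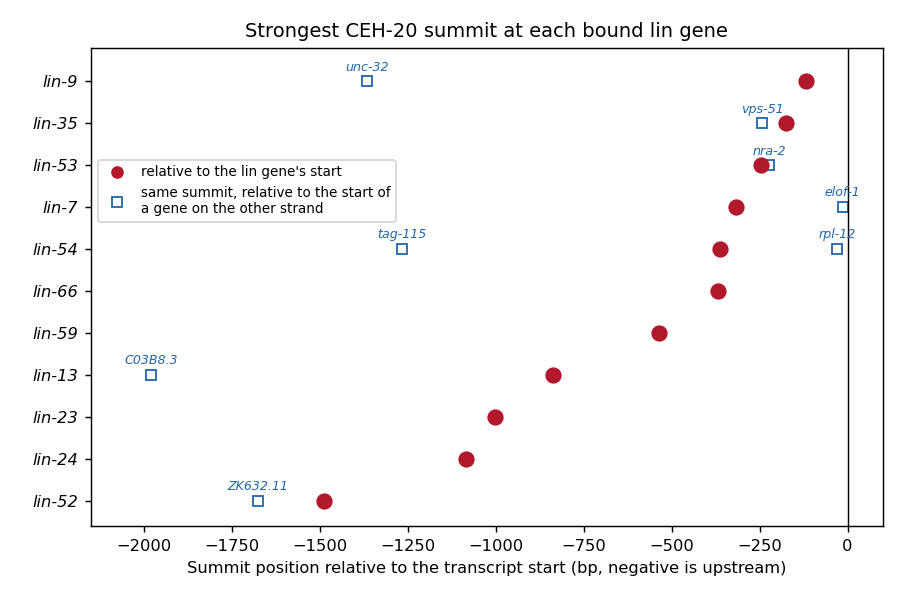
For each of the 11 bound lin genes (rows), the filled circle gives the position of its strongest conservative summit relative to the gene's own transcript start in bp, with negative values upstream. Open squares give the same summit relative to the start of a gene on the other strand whose window also holds it; at lin-7 and lin-54 that start is 14 and 30 bp away.

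By chromosome, 3 of 6 lin genes with a ranked summit were bound on chromosome I, against 14.3% of all genes with one there, 2 of 8 on II (against 12.6%), 3 of 6 on III (against 18.1%) and 3 of 7 on IV (against 14.4%). With 1 lin gene with a ranked summit on V and 2 on X, and shares over all genes of 11.8% and 17.6%, the absence of a bound lin gene there says nothing. Bound lin genes had a median of 2 annotated transcript starts (1 to 3), and unbound lin genes with a ranked summit a median of 1 (1 to 6), against a median of 1 over all bound genes and of 1 over all unbound genes with a ranked summit.

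Other genes listed under the same pathways, in textbook lists, were read in the same way. The lists are loose, and that for vulval induction includes egl-17, a fibroblast growth factor gene. All were chosen with earlier results of these data known. Of 46 such genes with a ranked summit, 13 were bound (28.3%), against 14.5% of all genes. In the synMuv list 6 of 19 were bound (31.6%). This list holds lin-15A and lin-15B, which were not bound, with strongest ranked signals of 25.96 and 37.1. The strongest bound gene was rba-1, at 213, but its peak is the one at lin-53, 1898 bp from the rba-1 start. The E2F gene efl-1, a partner of LIN-35, had a signal of 160 at 168 bp upstream, and its dimerisation partner gene dpl-1 was not bound, with a strongest ranked signal of 23.9. Also bound were epc-1 (108.5), of a histone acetyltransferase complex, the SUMO-conjugating enzyme gene ubc-9 (90.4), the ubiquitin ligase gene sli-1 (84.6) and the zinc finger gene mep-1 (63.0).

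In the vulval induction list 7 of 16 genes with a ranked summit were bound (43.8%, against 14.5% of all genes). Of those 7, 4 were in the thresholded list of neither replicate (57.1%, against 29.5% of all bound genes). The list of replicate 2 held 2 of the 16, egl-17 and let-92 (12.5%, against 9.53% of all genes). Both are also in the list of replicate 1, which held 4 of the 16 (25%, against 7.89%). Those 4 include sem-5, which is not among the 7. The bound genes were egl-17 (149), a fibroblast growth factor gene, and let-92 (109) and sur-6 (77.8), which encode subunits of protein phosphatase 2A. The others were sli-1 (84.6), which is also in the synMuv list, eor-2 (74.4), the Ras gene let-60 (66.9) and the scaffold gene ksr-2 (55.97). The receptor gene let-23, ksr-1, sos-1 and ark-1 had no ranked summit in their windows. In the larger thresholded list the adaptor gene sem-5 and the synMuv list's mys-1 were called in addition, and ksr-2 was not. In the Notch list 1 of 13 was bound (7.69%, against 14.5% of all genes). This was lag-1, which encodes the DNA-binding effector of the pathway, with a signal of 96.8 at 1567 bp upstream. The second Notch receptor gene glp-1 had no ranked summit.

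**Figure D4:**
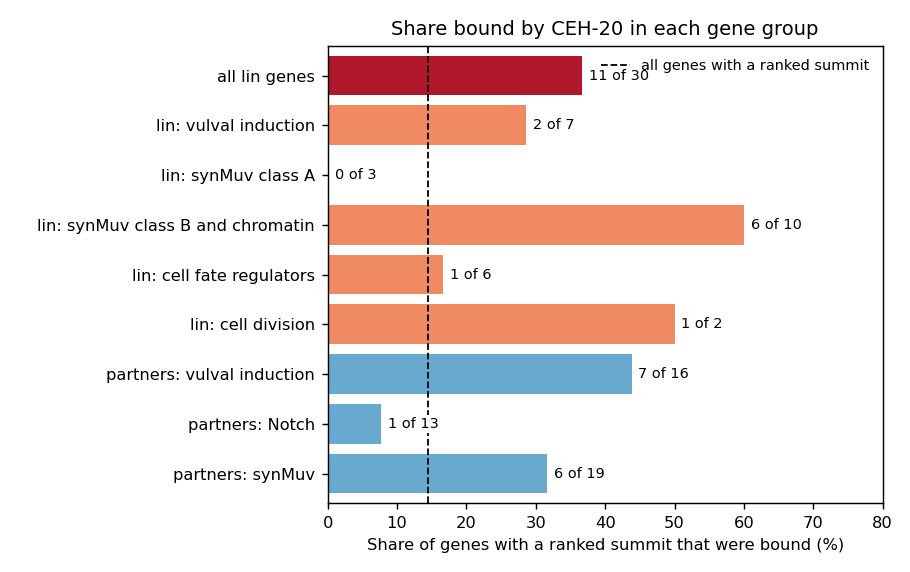
Bars give the percentage of genes with a ranked summit that were bound, for all lin genes, the role groups among them and the lists of other pathway genes, with bound and eligible genes counted beside each bar. The dashed line is the share over all genes with a ranked summit, 14.5%; the class B lin genes stand at 60% and the Notch list at 7.69%.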

How the data were processed

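The authors deposited peak lists on assembly ce11, per the labels and the file headers: per replicate and for the series, lists ranked by IDR and shorter, IDR-thresholded lists. The aligner and peak caller are not given in the sources used here. Peaks carry a deposited score, scaled by IDR up to 1000. The signal was deposited by the authors as a measure of peak strength and was used within 1 list only. The authors also gave a −log10 q-value and, in ranked lists, a −log10 IDR per peak. Depth per sample, and the precision it gives, is unknown, as no list has read counts. The replicate of each list is that of its sample; the series lists draw on both samples.

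Genes and transcript starts came from Ensembl release 115 (WBcel235, the same assembly), and sequence from RefSeq. Coordinates are 1-based. Counts were made with Python 3.11.15 and checked on planted summits. The lin genes, role groups, lists and motifs were chosen with earlier results of these data known. Of 53 genes in the pathway lists, 52 matched the annotation by symbol (mdt-23 did not). Of the role groups, lin-6 did not match. Named were all bound lin genes, those nearest to a conservative summit outside the window, the 5 unbound ones with the strongest ranked signal, those without a ranked summit and the bound pathway genes. Others named stand for a role or a comparison and were chosen after their values were seen.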

Additional observations from a re-analysis of the deposited data

How the results depend on the processing

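Of 38 alternative values of the main counts, 29 stayed within 1.5 times and 9 were lower. The count of 11 bound lin genes became 7 to 8 in the list of 1 replicate alone: 7 without replicate 1 and 8 without replicate 2. It became 6 of 26 with a window of 500 bp on each side (23.1%, against 11.5% of all genes) and 7 of 28 where a summit counted only for its nearest start (25%, against 12.1%), which leaves out lin-7, lin-52, lin-53 and lin-54. Of the class B synMuv and chromatin lin genes, 3 of 8 were then bound, in place of 6 of 10. The 13 other pathway genes became 6 to 9 with 1 replicate left out: 6 without replicate 1 (13%, against 9.53% of all genes) and 9 without replicate 2 (19.6%, against 7.89%). They became 8 with peaks at or above the median signal (17.4%, against 8.53%), 6 with the 500 bp window (17.1%, against 11.5%) and 7 with a window starting 1000 bp upstream (17.9%, against 12.7%). The vulval induction list among them was then at 3 in each of these last 3 settings, in place of 7. With motifs sought within 25 bp of the summit, 2 of the 11 had a match in place of 4. The share of all conservative summits with a match within 25 bp was not taken. The lower count is therefore not read as a result about the lin genes. Leaving out conservative peaks of signal under 20, an alternative chosen after the data had been seen, kept the 11 lin genes. No paired analysis was possible because both samples belong to 1 group.

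The main limits are that peak lists carry no depth, that 2 replicates of 1 group allow no comparison of conditions, and that whole larvae give no cell type.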
